A study of Mus musculus with 2 samples.

Results

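The clustered histone genes are the Hist1, Hist2, Hist3 and Hist4 genes, which encode the histones a cell makes while it copies its DNA. All genes whose symbol starts with Hist1h, Hist2h, Hist3h or Hist4h were taken, and 69 of the 27998 genes in the count tables met this rule, with Hist2h2bb listed under 2 gene IDs. They comprise 6 genes of the linker histone H1, 19 of H2A, 19 of H2B, 12 of H3 and 13 of H4. Of the 69 members, 55 belong to Hist1, 11 to Hist2, 2 to Hist3 and 1 to Hist4. In GRCm38, 53 Hist1 members were matched on chromosome 13, the 11 Hist2 members on chromosome 3 (96219865 to 96279001), both Hist3 members on chromosome 11 (58948920 to 58956830) and Hist4h4 on chromosome 6 (136801553 to 136804415).

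Pancreas cells of 2 C57BL/6 mouse embryos of embryonic day 13.5 were dissociated and their RNA was read cell by cell in droplets (10x Chromium 3′, version 2). The method captures RNA by its poly(A) tail, reads the 3′ end and counts each captured molecule by a unique molecular identifier (UMI). One embryo was labelled control, with no genotype given. The other was labelled knockout, and the design text names it Dpy30∆P, and no promoter or cell type of the deletion is named in the labels. Dpy30 is a core subunit of the COMPASS complexes, 1 family of those that methylate histone H3 at a lysine residue. Dpy30 itself was read at 222 CPM (UMIs per 1000000 UMIs of the same cells) in control and 266 CPM in knockout-labelled epithelium, and at 98.96 and 113 CPM in mesenchyme. Which exons were deleted is not stated, so this 3′ tag checks nothing about the label. With 1 library a group, no difference between the libraries has a replicate check, and no test was run. Intervals are exact and at 95%, and they cover counting error only. The embryos differed in sex, with 2 and 58463 UMIs of Xist, and sex, embryo and genotype cannot be told apart.

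After filtering, 3871 of 3900 control and 3012 of 3044 knockout-labelled barcodes were kept, with medians of 6832 and 8032.5 UMIs per cell and 22 barcodes shared between the libraries. Cells were placed in classes by raw UMIs of marker genes. The control library held 700 epithelial, 2573 mesenchymal, 195 mesothelial, 81 immune and 31 neural cells, and the knockout-labelled library 453, 2089, 172, 21 and 42. Epithelial cells were divided into tip (281 and 219 cells), trunk (219 and 157), endocrine progenitor (123 and 53) and endocrine (77 and 24). The median epithelial cell held 28 and 36 UMIs of its own markers and 0 of the mesenchymal markers, and the median mesenchymal cell 13 and 12 of its own and 0 of the epithelial markers. Median mesothelial cells held 8 and 7.5 mesothelial and 11 and 12 mesenchymal UMIs. Haemoglobin UMIs, which stand for RNA free in the suspension, had medians of 2 and 5 in epithelial cells and 1 and 3 in mesenchymal cells. How much free RNA added to the histone values was not tested.

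Most clustered histone genes are transcribed during S phase, when new DNA is packed into nucleosomes. Their messenger RNAs are unusual in animals because they end in a short stem-loop in place of a poly(A) tail. Stem-loop binding protein holds that stem-loop, and the RNA is cleaved a few bases after it and degraded when replication stops. A capture through adenines can bind a tail or an internal run of adenines. Some clustered genes are known to make polyadenylated RNA as well, from signals further downstream, in cells that have stopped dividing.

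The histone stem-loop was searched in the transcripts of GENCODE M21 (GRCm38), in the written strand, as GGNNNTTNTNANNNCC, where N is any base. Of 67 members matched there, 43 held it in the described transcript, and 23 of those carried one identical stem-loop, that of Hist1h2ap. Another 7 carried the form of Hist1h4d and 6 the form of Hist1h3c. One of each family is shown, since this short element is where the replication-linked RNA ends. Capitals mark the stem-loop.
Hist1h2ap (H2A): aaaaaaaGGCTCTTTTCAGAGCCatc
Hist1h1e (H1): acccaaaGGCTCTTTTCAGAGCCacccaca
Hist3h2ba (H2B): acccaaaGGCTCTTTTCAGAGCCaccttcc
Hist1h3c (H3): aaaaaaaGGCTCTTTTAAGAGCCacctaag
Hist1h4d (H4): aaccaaaGGCCCTTTTCAGGGCCactacct

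Just before the stem-loop, members differed in adenines. Over the 43 members with a stem-loop, the 20 bases before it held between 3 and 16 adenines, with a median of 8. For the 25 replication-linked members among them (grouped below), adenines and control UMIs had a Spearman rank correlation of 0.191. Hist1h2ab held 12 adenines with 122 control UMIs, Hist2h2ac 11 with 154 and Hist1h4i 6 with 940. Hist1h2ap and its copy Hist1h2ao held 16, in an unbroken run of 12, and Hist1h2ae held 13, with a run of 8. Capitals mark the run here, and the lower-case bases at its right begin or lead into the stem-loop.
Hist1h2ap: cccgaaaagAAAAAAAAAAAAggctctttt
Hist1h2ao: cccgaaaagAAAAAAAAAAAAggctctttt
Hist1h2ae: tctaatctcgtAAAAAAAAcaaaggctctt

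**Figure D1:**
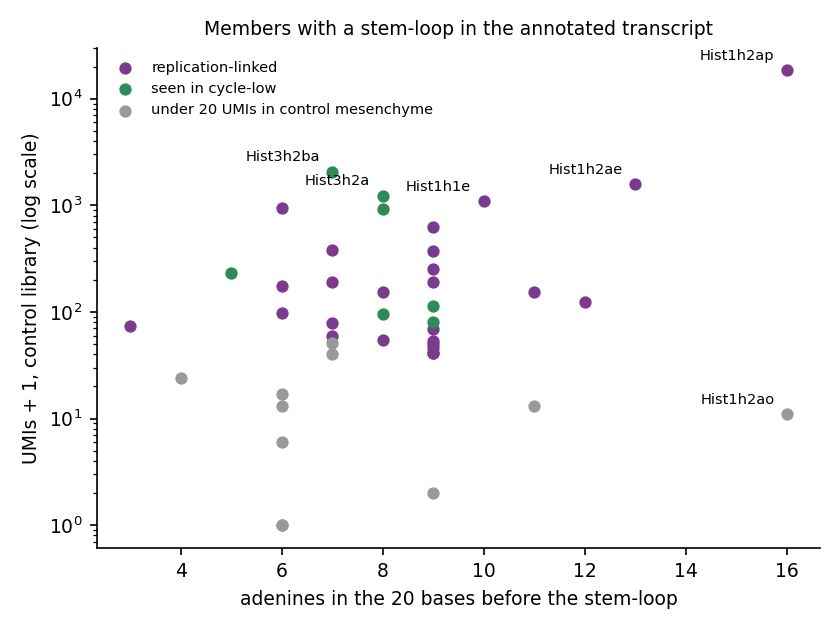
Adenines in the 20 bases before the stem-loop (horizontal axis) and UMIs plus 1 in kept control cells (vertical axis, log scale), 1 point for each of the 43 members with a stem-loop in the annotated transcript. Hist1h2ap and Hist1h2ao share the highest value of 16 adenines, with 18406 UMIs listed for the first and 10 for the second.

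Other members had annotated transcripts that ran on past the stem-loop. In 22 of the 43, more than 100 bases followed it. The last 30 bases of 4 of them follow, with the poly(A) signal (AATAAA or ATTAAA) in capitals, from genes whose RNA was read in cells with few cell cycle UMIs (grouped in a later paragraph).
Hist3h2ba: attAATAAAtttggttcaattttggccaca
Hist1h1c: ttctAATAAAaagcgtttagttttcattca
Hist4h4: agaagatgctagaggagatgaAATAAAtac
Hist1h2be: tgtgttccttATTAAAgcattcctgattga

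Members took 35212 of 32514557 UMIs in the control library (0.108%) and 25654 of 27722203 in the knockout-labelled library (0.0925%). Over both libraries, 42 members had at least 100 UMIs, 16 had 20 to 99, 9 had 1 to 19, and Hist1h2br and Hist1h2bq had 0. Hist1h2ap, an H2A gene of the Hist1 cluster (chr13:21833026-21833507), alone gave 52.3% of the control and 38.1% of the knockout-labelled member UMIs. The 10 highest members gave 86.8% and 79.8%. UMI levels were not divided by transcript length, and at the 3′ end they depend on how each RNA is captured, so the order of genes below is an order of captured UMIs.

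Among H2A genes, Hist1h2ap was read at 566 CPM in control and 353 CPM in knockout-labelled cells, over all kept cells. Hist1h2ae followed at 48.7 and 54.9 CPM, Hist3h2a at 37.7 and 41.1 CPM and Hist1h2ag at 11.7 and 20.5 CPM. Hist1h2al had 6.55 and 9.52 CPM, and GENCODE M21 lists it as a processed pseudogene apart from the cluster (chr13:51202727-51203065). Between 1.75 and 4.74 CPM in control were Hist2h2ac (4.74 and 5.63 CPM), Hist1h2ak (4.68 and 4.62), Hist1h2ab (3.75 and 4.29), Hist2h2aa1 (2.98 and 2.31), Hist1h2af (2.46 and 3.28), Hist1h2ac (2.09 and 2.42), Hist1h2ai (1.81 and 2.71) and Hist1h2an (1.75 and 3.25). The family as a whole was at 696 and 509 CPM.

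H2B, the partner of H2A in the nucleosome, was led by Hist1h2bc and Hist3h2ba, from separate clusters. Hist1h2bc was read at 83.1 and 82.2 CPM and Hist3h2ba at 63.7 and 49.1 CPM. Hist1h2bj had 5.87 and 7.25 CPM and Hist1h2bk 5.35 and 8.62 CPM. Lower still were Hist1h2bm (3.05 and 3.07 CPM), Hist1h2be (2.46 and 3.86), Hist2h2be (1.94 and 1.95), Hist1h2bg (1.63 and 2.27), Hist1h2bb (1.60 and 3.32), Hist1h2bn (1.38 and 2.27) and Hist1h2bf (1.38 and 2.09). Summed, H2B was at 175 and 171 CPM.

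The linker histones, which bind the DNA entering and leaving the nucleosome, were read at 100.3 and 113 CPM in all. Hist1h1e had 33.6 and 38.9 CPM, Hist1h1b 31.1 and 35.7 CPM and Hist1h1c 28.5 and 29.7 CPM. Hist1h1a (4.67 and 5.99 CPM) and Hist1h1d (2.37 and 2.96 CPM) were lower, and the testis linker gene Hist1h1t had 1 UMI in each library.

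The core histones H3 and H4, which form the centre of the nucleosome, gave fewer UMIs. H3 was at 37.4 and 50.8 CPM in sum. Its members with at least 100 UMIs were Hist1h3c (11.4 and 14.6 CPM), Hist1h3e (7.69 and 12.2), Hist1h3i (4.80 and 5.88), Hist1h3a (4.71 and 5.88), Hist1h3d (1.78 and 1.98) and Hist1h3h (1.72 and 3.46). H4 was at 74.1 and 81.7 CPM, carried by Hist1h4i (28.9 and 28.9 CPM), Hist1h4d (19.2 and 24.8), Hist4h4 (7.11 and 5.66), Hist1h4b (5.78 and 5.92), Hist1h4h (3.48 and 4.94), Hist1h4c (2.89 and 4.65) and Hist2h4 (2.21 and 1.62).

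The members are near copies of each other, and this bears on each gene-level count. Stretches of 90 bases (90-mers) taken from the annotated transcripts were looked up in those of all other genes. Of the 67 matched members, 27 shared more than 50% of their 90-mers with another gene, 34 shared up to 50% and 6 shared none, among them Hist1h1b. Hist1h2ap shared 92.4% of its 90-mers with Hist1h2ao. Of the 311 that lie in the last 400 bases before the stem-loop, all 311 were shared with Hist1h2ao and 0 were unique to Hist1h2ap. The files nevertheless list 18406 and 9785 UMIs for Hist1h2ap and 10 and 12 for Hist1h2ao. The sources used here name no annotation release for the counts, so values listed for Hist1h2ap are uncertain as to the copy they come from. Hist1h1e overlaps Hist1h2be on the same strand, and Hist3h2a overlaps Trim17. Hist1h2ap, Hist1h2ae and Hist1h2ag each have an annotated antisense gene, and the sources do not say whether the counting used strand.

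The next question was which members were read in cells that were replicating. Each cell was thinned to 3000 UMIs and graded by its UMIs of 39 S phase genes and 38 genes of G2 and mitosis, none of them a member. Cycle-low cells held at most 4 S phase and at most 2 G2 and mitosis UMIs. S-range cells held at least 8 S phase UMIs, and were divided by their G2 and mitosis UMIs into none or few (at most 2), some (3 to 9) and many (at least 10). G2-only cells held at most 4 S phase and at least 10 G2 and mitosis UMIs. In mesenchyme, 1191 control and 908 knockout-labelled cells were cycle-low, and 602 and 532 were in the S range. These are ranges of a score and not cell types, and 319 and 256 mesenchymal cells lay within 1 UMI of the S cut.

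Summed over all members, control mesenchyme had 213 CPM in cycle-low cells and 2087 CPM in S-range cells, a 9.79-fold difference (9.27 to 10.3). Knockout-labelled mesenchyme had 262 and 1754 CPM, a 6.69-fold difference (6.34 to 7.06). Without Hist1h2ap the folds were 3.36 in both libraries. Epithelium differed less, with 808 and 1800 CPM in control cells (2.23-fold, 2.11 to 2.35) and 738 and 1507 CPM in knockout-labelled cells (2.04-fold, 1.92 to 2.17). Without Hist1h2ap the epithelial members summed to 765 CPM in cycle-low and 687 CPM in S-range control cells (0.898-fold, 0.844 to 0.955). In knockout-labelled epithelium they summed to 699 and 705 CPM (1.01-fold, 0.940 to 1.083). That sum joined members that rose and members that fell. Replication-linked members other than Hist1h2ap (grouped below) rose from 88.5 to 370 CPM in control epithelium (4.18-fold, 3.58 to 4.90). In knockout-labelled epithelium they rose from 89.9 to 435 CPM (4.84-fold, 4.11 to 5.72). Members seen in cycle-low cells (grouped below) fell from 668 to 296 CPM in control and from 598 to 244 CPM in knockout-labelled epithelium. Cycle-low epithelium thus had a higher histone CPM than cycle-low mesenchyme in both libraries. The epithelial ranges differed in classes. Of control cells, 32 tip, 44 trunk, 70 endocrine progenitor and 69 endocrine cells were cycle-low. In the S range were 152, 99, 18 and 2. Knockout-labelled cells were 69, 40, 27 and 23 in cycle-low and 80, 71, 10 and 0 in the S range. What class and cycling each added to these epithelial values was not tested.

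Histone UMIs were not spread evenly over the S range. In control mesenchyme all members together were at 194 CPM in S-range cells with at most 2 G2 and mitosis UMIs, below the 213 CPM of cycle-low cells. They were at 1044 CPM in those with some and 4809 CPM in those with many such UMIs, and at 892 CPM in G2-only cells. The knockout-labelled series read 227, 1153, 3651 and 942 CPM in that order. Hist1h2ap was read at 17.2, 36.6, 657, 3433 and 279.6 CPM in control and 10.2, 22.6, 587, 1995 and 185 CPM in knockout-labelled mesenchyme, from cycle-low through S range to G2-only. Its level in S-range cells with many G2 and mitosis UMIs was the highest of the 5 ranges in both libraries.

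The stem-loop binding protein gene Slbp had another order. In control mesenchyme it was at 100, 214, 313, 319 and 67.0 CPM over the same ranges, and in knockout-labelled mesenchyme at 105, 225, 318, 354 and 75.6 CPM. Slbp was thus already at 214 and 225 CPM in the S-range cells where histone UMIs were low. The histone chaperone Nasp, which carries H3 and H4, was at 363 and 387 CPM in those cells and at 404 and 455 CPM in those with many G2 and mitosis UMIs.

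**Figure D2:**
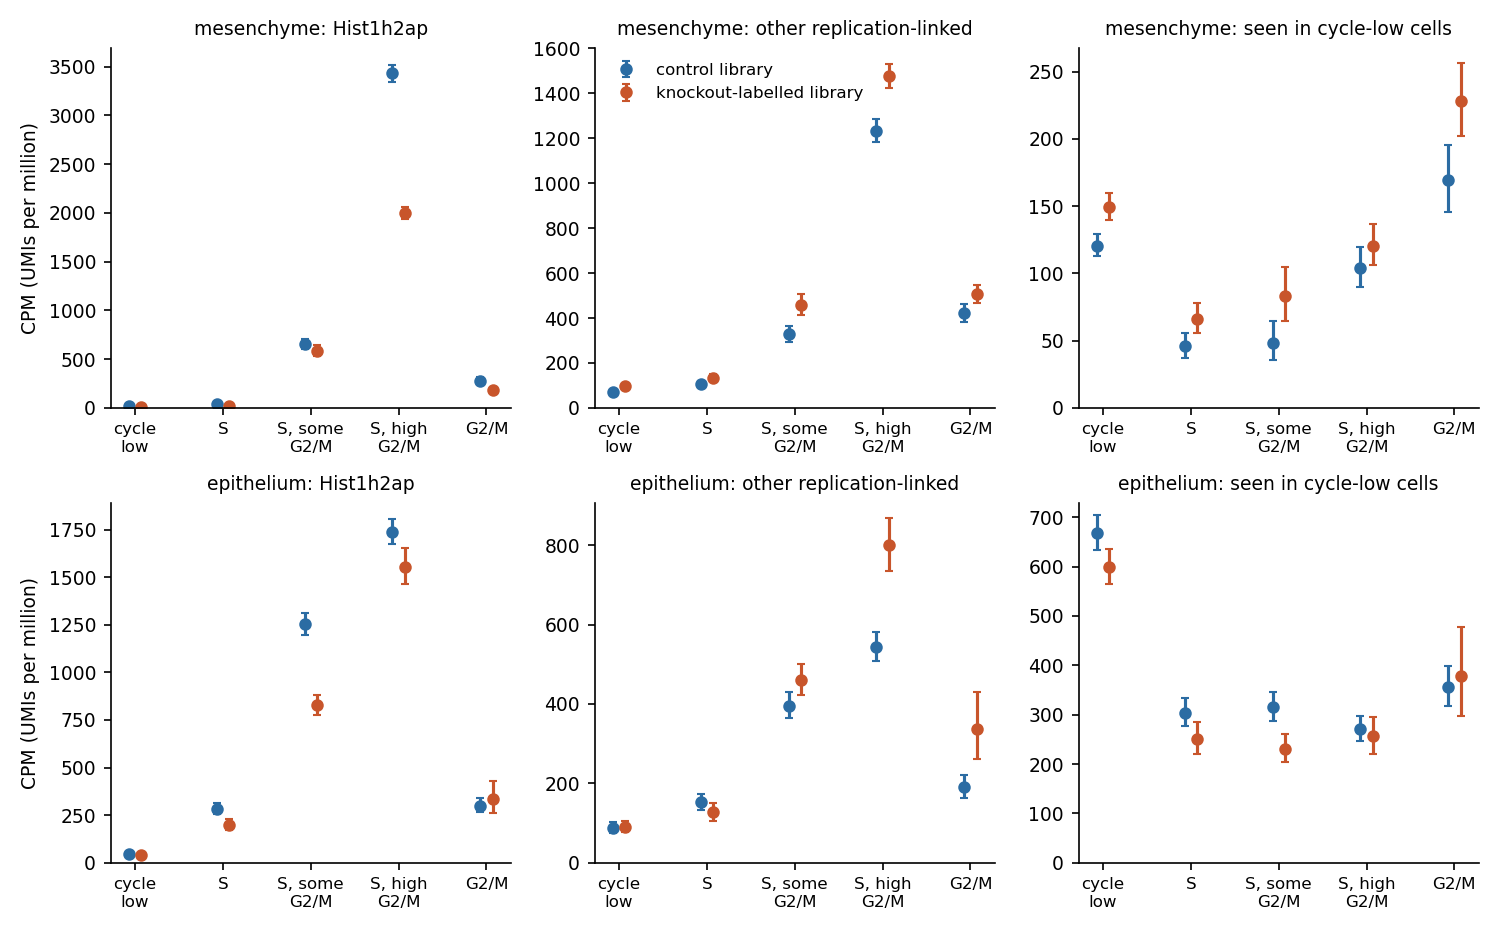
CPM of Hist1h2ap, of the other replication-linked members summed and of the members seen in cycle-low cells summed (columns), in mesenchyme (top) and epithelium (bottom), over 5 ranges of cell cycle UMIs, with exact Poisson intervals. The first 2 columns peak in S-range cells with many G2 and mitosis UMIs in both libraries, and in epithelium the third is highest in cycle-low cells. The epithelial ranges differ in their share of tip, trunk, endocrine progenitor and endocrine cells.

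Members with at least 20 UMIs in control mesenchyme, 44 of the 69, were divided there. A member at least 3-fold higher in S-range than in cycle-low cells was called replication-linked, and the others were called members seen in cycle-low cells. For a member at 0 in cycle-low cells, 3 counts over the range were used in its place. This gave 34 replication-linked members (4 of H1, 11 of H2A, 7 of H2B, 8 of H3 and 4 of H4) and 10 seen in cycle-low cells, with 25 members below the minimum. The 10 were Hist3h2ba, Hist3h2a, Hist1h2bc, Hist1h1c, Hist4h4, Hist1h4c, Hist1h4h, Hist1h3h, Hist1h2ai and Hist1h2be. The name of the 10 follows from the cut alone. Hist1h4c (2.20-fold), Hist1h4h (2.35), Hist1h3h (2.66), Hist1h2ai (2.29) and Hist1h2be (2.62) were themselves higher in S-range cells, on 7 to 16 cycle-low UMIs. The intervals of Hist1h2ai and Hist1h2be include 1. Some replication-linked members had more cycle-low UMIs than these, such as Hist1h2ap with 117 and Hist1h1e with 67. Control mesenchyme chose these groups, so its values are a description, beside a background of 2.67% of all genes at least 3-fold higher. Just inside the cut were Hist1h3d at 3.29-fold and Hist1h3e at 3.55-fold, and just outside it Hist1h3h at 2.66-fold and Hist1h2be at 2.62-fold.

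The knockout-labelled mesenchyme took no part in the choice. Of 32 replication-linked members with at least 20 UMIs over both ranges there, 30 were at least 3-fold higher in S-range cells, against 2.63% of all genes. The other 2 were Hist1h3e at 2.79-fold (2.00 to 3.95) and Hist1h2bg at 2.90-fold (1.21 to 7.65), both with intervals that include 3. Of the 34, Hist2h4 (12 S-range and 3 cycle-low UMIs) and Hist1h3b (11 and 1 UMIs) were under the minimum there, at 4.88-fold and 13.4-fold. The median of the 32 was 6.51-fold and their range 2.79 to 89.3. The minimum counts both ranges together, so some members passed it almost only through S-range UMIs. Hist1h2af had 46 S-range and 0 cycle-low UMIs, Hist1h2ac 30 and 0, and Hist1h2bl 27 and 1. Such members could hardly fall under 3-fold, so the count of 30 is a description and no test. Of the 10 members seen in cycle-low cells, 1 (Hist1h3h, 3.66-fold) was past 3-fold, and their median was 1.35-fold.

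In epithelium the same groups had lower folds. Of 20 replication-linked members with the minimum in control epithelium, 14 were at least 3-fold higher in S-range cells (3.39% of all genes), with a median of 4.77-fold. In knockout-labelled epithelium it was 10 of 14 (2.96% of all genes), with a median of 4.24-fold. Of the members seen in cycle-low cells, 0 of 7 and 0 of 6 were past 3-fold. A member low in both ranges could not reach the minimum, so these counts leave out the least captured ones. As in mesenchyme, some passed it almost only through S-range UMIs, such as Hist1h3i with 21 S-range and 1 cycle-low UMIs in control epithelium.

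Hist1h2ap was 83.2-fold (69.3 to 100.8) higher in S-range than in cycle-low cells of control mesenchyme and 89.3-fold (69.5 to 117) in knockout-labelled mesenchyme. Hist1h2al was at 100.1-fold and 19.7-fold, on 1 and 7 cycle-low UMIs. The linker gene Hist1h1b was at 45.7-fold and 57.5-fold, Hist1h2ae at 13.9-fold and 12.4-fold, and the linker gene Hist1h1e at 6.80-fold and 7.23-fold. Opposite in direction, Hist3h2ba was at 0.342-fold and 0.395-fold, Hist3h2a at 0.370-fold and 0.416-fold and Hist1h2bc at 0.271-fold and 0.201-fold. Hist1h1c (1.33-fold and 1.28-fold) and Hist4h4 (1.26-fold and 0.966-fold) lay near 1 in mesenchyme. In mesothelium Hist1h1c was at 6.80-fold (1.65 to 60.0) in control, on 20 S-range and 2 cycle-low UMIs. It was at 2.78-fold (0.777 to 12.4) in knockout-labelled mesothelium, and at 0.601-fold and 0.464-fold in epithelium, where the ranges differ in classes.

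**Figure D3:**
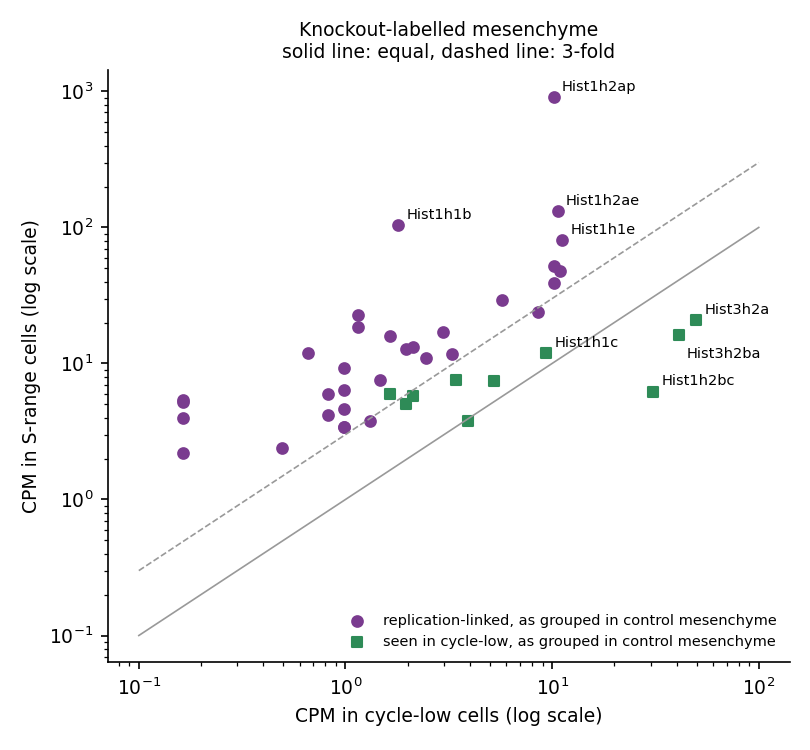
CPM in cycle-low cells (horizontal axis, log scale) and in S-range cells (vertical axis, log scale) of knockout-labelled mesenchyme, 1 point per member, grouped as in control mesenchyme. Members at 0 in a range are not drawn. Most replication-linked members lie above the dashed 3-fold line, and Hist1h2bc, Hist3h2ba and Hist3h2a lie below the solid line of equal values.

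The annotated transcripts of the groups differed downstream of the stem-loop. Of the 10 members seen in cycle-low cells, 7 held a stem-loop, 6 had over 100 bases after it, and 6 had a poly(A) signal within 40 bases of the end. The median of those 7 was 840 bases after the stem-loop. Of the 33 matched replication-linked members, 25 held a stem-loop, 11 had over 100 bases after it and 3 had a poly(A) signal near the end, with a median of 57 bases. Hist1h2ap itself ended 3 bases after the stem-loop, while Hist1h1c ran on for 840, Hist3h2a for 1643 and Hist4h4 for 2445 bases. Hist1h2bc (chr13:23684199-23692908) held no stem-loop in its annotated transcript, which ran 742 bases past the stop codon. For 13 members the annotated transcript stopped at the stop codon, so nothing can be said of their ends, and Hist1h1b is one of them.

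Members seen in cycle-low cells differed in where they were read. Hist3h2ba, an H2B gene of the Hist3 cluster (chr11:58948920-58949533), was highest in endocrine cells at 405.5 CPM in control (360.2 to 455) and 256 CPM in knockout-labelled cells. It was at 289 and 157 CPM in neural cells and at 32.1 and 29.6 CPM in mesenchyme, its lowest class in either library apart from immune cells. In the epithelium it ran from tip (67.9 and 46.8 CPM) through trunk (102 and 86.0) and endocrine progenitors (114 and 109) to endocrine cells. Neighbouring levels of trunk and endocrine progenitor overlapped in their counting intervals in both libraries.

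Hist1h2bc, another H2B gene, was read in all 4 epithelial classes. It was at 195 and 245 CPM in tip, 181 and 162 CPM in trunk, 131 and 151 CPM in endocrine progenitors and 242 and 162 CPM in endocrine cells. Mesenchyme held 21.5 and 34.4 CPM, mesothelium 79.8 and 55.3 CPM and immune cells 89.6 and 111 CPM. Hist1h1c, a linker histone known to be made outside S phase, was at 56.4 and 80.4 CPM in tip, 134 and 62.8 CPM in endocrine cells, 73.3 and 93.6 CPM in immune cells and 11.4 and 13.0 CPM in mesenchyme. Hist3h2a, the H2A gene beside Hist3h2ba, was at 81.1 and 89.0 CPM in endocrine cells, 40.3 and 40.0 CPM in tip and 28.5 and 36.1 CPM in mesenchyme.

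The class differences of these genes were also present among cycle-low cells alone. Hist3h2ba was at 234 and 104 CPM in cycle-low epithelium against 43.6 and 41.0 CPM in cycle-low mesenchyme. Hist1h2bc was at 259 and 311 CPM against 19.1 and 30.8 CPM, and Hist1h1c at 67.3 and 92.5 CPM against 7.77 and 9.34 CPM. The cycle-low epithelium was itself mixed. Of 215 such control cells, 70 were endocrine progenitors and 69 endocrine cells, and of 159 knockout-labelled cells 27 and 23. The part of these classes in the cycle-low values was not tested. Epithelial cells held more UMIs than mesenchymal cells, with medians of 12397.5 and 14411 against 6127 and 7362, and CPM divides by that total.

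**Figure D4:**
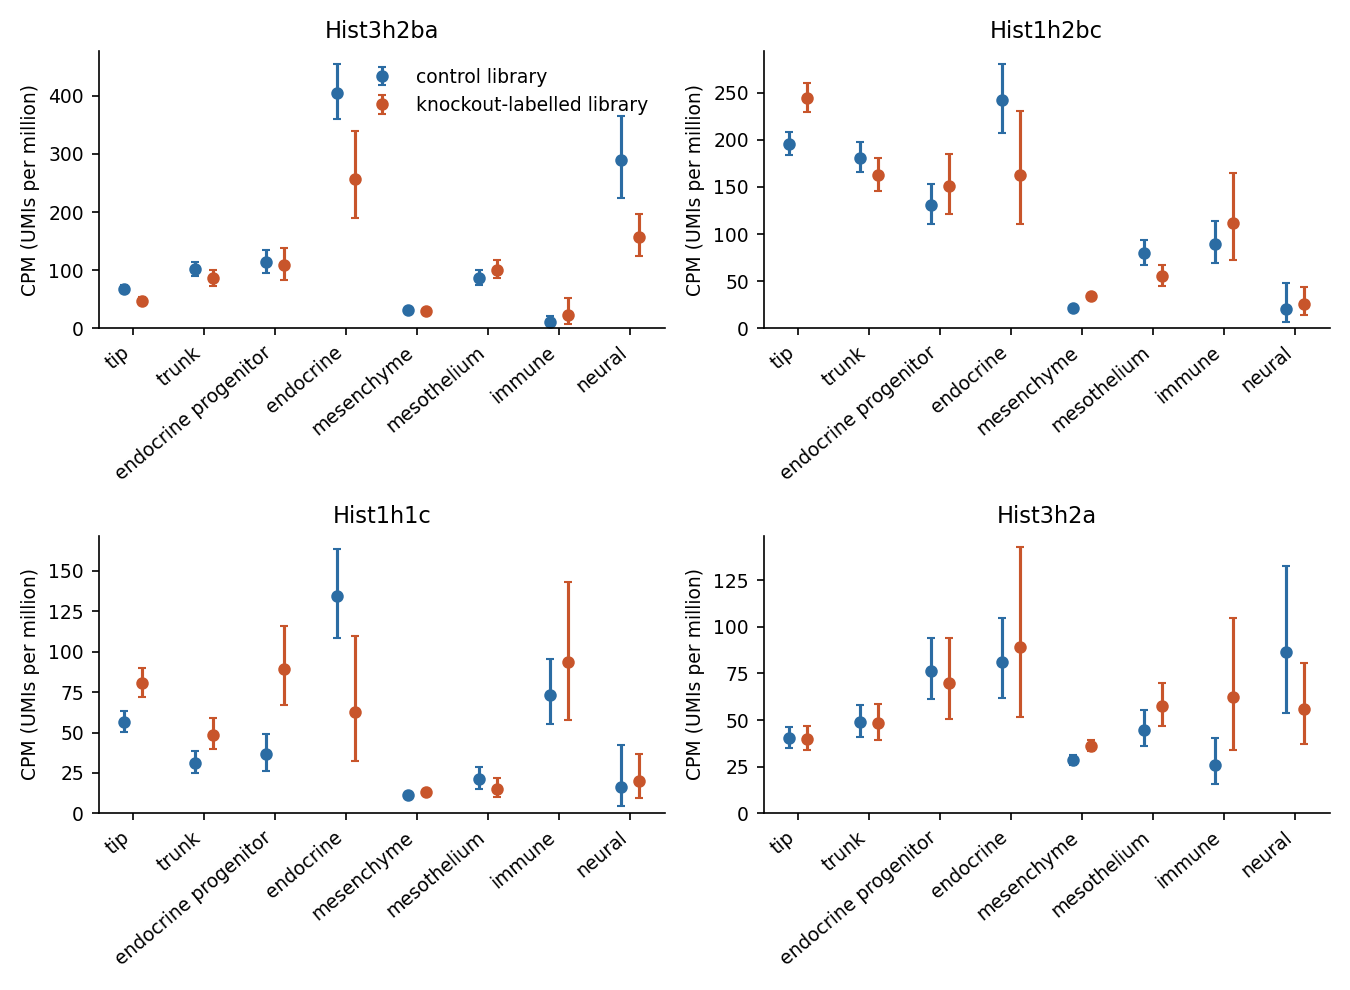
CPM of Hist3h2ba, Hist1h2bc, Hist1h1c and Hist3h2a (panels, with separate vertical axes) in 8 classes of both libraries, with exact Poisson intervals. Hist3h2ba is highest in endocrine cells, at 405.5 CPM in control and 256 CPM in knockout-labelled cells, and Hist1h2bc is high in all 4 epithelial classes and low in mesenchyme and neural cells.

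The authors' deposited table of cluster genes held 25 entries for 7 of the members over its 7 clusters, and it does not name the cells behind them. It gives the average log fold of a cluster over the other clusters, read here as a natural log. In the authors' deposited table, Hist3h2ba was at 1.06 and Hist1h1c at 0.447 in the cluster led by the hormone genes Gcg and Pyy, and Hist1h2ap was at -1.18 there. The authors' deposited table gives Hist1h2ap at 1.09 in the cluster led by the mitosis genes Ube2c, Cenpf and Top2a, and at 1.22 in the one led by 2810417H13Rik. Hist1h2bc was at 0.346 in the cluster led by the acinar gene Ctrb1 and at -0.717 in the cluster of 2810417H13Rik, by the authors' deposited table.

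Between the libraries, Hist1h2ap was lower in the knockout-labelled one over all kept cells, and the direction of the other members differed by class. Over all kept cells the fold was 0.624 (0.608 to 0.639) for Hist1h2ap. The other members summed were at 517 CPM in control and 572 CPM in knockout-labelled cells, a fold of 1.11 (1.084 to 1.13). Of 58 members with at least 20 UMIs over both libraries, 48 lay above 0 on the log2 scale and 10 below. Classes differ in size and in cycling, so the comparison was made within classes. With the same minimum, 45 members were above 0 and 8 below in mesenchyme, and 24 and 20 in epithelium. In tip it was 11 above and 22 below, and in mesothelium 7 above and 16 below. Over all kept cells the median log2 ratio was 0.111 for the members and -0.0243 for all genes tested. In tip these medians were -0.0219 and 0.00566, so the tip count stands beside a shift near 0. The share of all genes above 0 is not given here, and members that are near copies do not count independently.

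In mesenchyme, the largest class, Hist1h2ap had 8601 control and 5398 knockout-labelled UMIs, at 501.5 CPM (491 to 512) and 332 CPM (323 to 341). The ratio was 0.662 (0.640 to 0.686). The other members summed were at 397 and 519 CPM, 1.31-fold (1.27 to 1.35) higher in the knockout-labelled library. Summed with Hist1h2ap, the log2 ratio of (CPM + 5) was -0.08. Among mesenchymal cells the G2 and mitosis genes summed to 2538 and 2654 CPM and the S phase genes to 2089 and 2115 CPM.

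A member was called higher or lower where the ratio of (CPM + 5) passed 1.5-fold, with at least 20 UMIs over both libraries. In mesenchyme 53 members had the minimum. Hist1h2ag alone was called higher (0.48% of all genes were) and Hist1h2ap alone lower (0.805% of all genes were). Hist1h2ag, an H2A gene (chr13:22042460-22042944) that shares 69.5% of the 90-mers of Hist1h2ap, was at 14.6 and 27.0 CPM, 1.84-fold (1.57 to 2.16). Of the 53, 45 were above 0 on the log2 scale, and their median was 0.20 against -0.01 for all genes tested. Both calls lay close to the threshold, with log2 ratios of -0.59 for Hist1h2ap and 0.70 for Hist1h2ag. Under median-of-ratios scaling Hist1h2ap was at -0.57 and no longer called, and with each cell thinned to 3000 UMIs Hist1h2ag was at 0.58 and no longer called. The count of calls depended on the pseudocount. With 1 CPM in place of 5, 10 of the 53 members were called higher (1.89% of all genes were) and 1 lower (2.64% of all genes were).

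Other members did not pass the threshold in mesenchyme, and 2 of them lay just under it on the (CPM + 5) scale, at log2 ratios of 0.56 for Hist1h3e and 0.57 for Hist1h2bc. Hist1h3e had 8.75 and 15.3 CPM (1.75-fold, 1.42 to 2.15) and Hist1h2bc 21.5 and 34.4 CPM (1.60-fold, 1.40 to 1.83). Hist1h4d had 19.9 and 26.8 CPM, Hist1h2ae 45.1 and 58.0 CPM and Hist1h1e 30.7 and 39.3 CPM, at 1.34-fold, 1.29-fold and 1.28-fold. The linker gene Hist1h1b, which shares no 90-mer with another gene, had 34.9 and 40.3 CPM, 1.15-fold (1.03 to 1.29). Hist3h2ba had 32.1 and 29.6 CPM, at 0.923-fold (0.815 to 1.05), an interval that includes 1.

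In epithelium Hist1h2ap had 6093 and 2724 UMIs, at 632 and 402 CPM, a ratio of 0.637 (0.608 to 0.666). The other members summed to 692 and 706 CPM. Of 44 members with the minimum, 0 were called higher (0.817% of all genes were) and 2 lower (2% of all genes were). These were Hist1h2ap and Hist3h2ba, which was at 108 and 70.2 CPM (0.648-fold, 0.581 to 0.724). Hist1h2an was at 0.726 and 2.81 CPM (3.87-fold, 1.56 to 10.9), on 7 and 19 UMIs. It was not called with 5 CPM added but passed 1.5-fold with 1 CPM added. Hist3h2ba lost its call under 3 of the alternatives, with log2 ratios of -0.57 to -0.58 in place of -0.59. Hist1h1c had 52.6 and 71.2 CPM (1.35-fold, 1.19 to 1.54). Of the 44, 24 lay above 0 and 20 below, and their median was 0.02 against -0.02 for all genes tested. The log2 ratio of all members summed was -0.26.

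Cycling differed between the libraries in the epithelium, beside these values. The G2 and mitosis genes summed to 3252 CPM in control and 1973 CPM in knockout-labelled epithelium (0.607-fold), and the S phase genes to 2850 and 2702 CPM. In endocrine cells, Hist3h2ba had 290 and 49 UMIs, at 0.633-fold (0.457 to 0.859), where the knockout-labelled library held 24 cells. Their part in the epithelial ratios was not tested.

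By class, Hist1h2ap was lower in the knockout-labelled library in 7 of the 8 classes. It was at 713 and 410.3 CPM in tip (0.576-fold), 743 and 500.5 CPM in trunk (0.674-fold) and 308 and 143 CPM in endocrine progenitors (0.463-fold). In endocrine cells it had 116 and 6 UMIs (0.194-fold, 0.0696 to 0.434). Mesothelium had 861 and 401 CPM (0.465-fold, 0.426 to 0.508) and neural cells 549 and 326 CPM (0.595-fold). In immune cells, 81 and 21 in number, it was at 578 and 633 CPM, 1.09-fold with an interval that includes 1. The G2 and mitosis genes were at 0.525-fold in tip, 0.594-fold in trunk, 0.160-fold in endocrine cells and 0.514-fold in mesothelium. They were at 1.04-fold in endocrine progenitors, 1.05-fold in mesenchyme and 1.28-fold in neural cells. Of immune cells, 32.1% (22.2 to 43.4) in control and 47.6% (25.7 to 70.2) in the knockout-labelled library were in the S range.

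**Figure D5:**
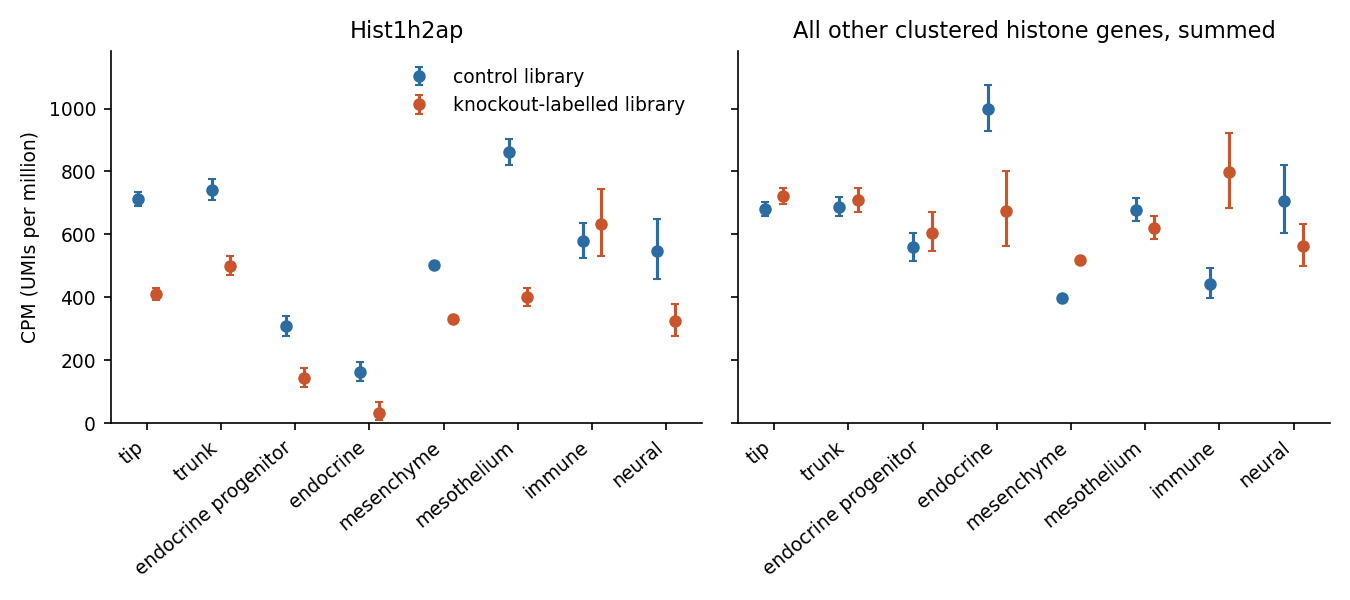
CPM of Hist1h2ap (left) and of all other clustered histone genes summed (right) in 8 classes of both libraries, with exact Poisson intervals. Hist1h2ap lies lower in the knockout-labelled library in every class but immune cells, whereas the other members show both directions.

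Within the cycle ranges of mesenchyme, Hist1h2ap was lower in the knockout-labelled library where it was highest. In S-range cells with many G2 and mitosis UMIs (210 and 193 cells) it was at 3433 and 1995 CPM, 0.581-fold (0.558 to 0.605). The G2 and mitosis genes were at 8418 and 7921 CPM and the S phase genes at 4269 and 4117 CPM in those cells. The other replication-linked members summed to 1233 and 1476 CPM, 1.20-fold (1.13 to 1.27). Among them Hist1h1b was at 220.5 and 223 CPM, Hist1h2ae at 240.4 and 287 CPM, Hist1h1e at 148 and 171 CPM and Hist1h2ag at 44.8 and 82.7 CPM (1.85-fold, 1.41 to 2.44). In the cells with some G2 and mitosis UMIs, Hist1h2ap was at 657 and 587 CPM, 0.893-fold with an interval of 0.792 to 1.01.

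The ranges of the other classes did not repeat that size. In epithelium Hist1h2ap was at 1737 and 1556 CPM (0.896-fold, 0.835 to 0.961) in S-range cells with many G2 and mitosis UMIs, of which there were 88 and 37. With some such UMIs it was at 1252 and 828 CPM (0.662-fold, 0.611 to 0.716). The other replication-linked members were at 544 and 799 CPM in the first of these ranges, 1.47-fold (1.32 to 1.64). In the 32 and 16 mesothelial cells with many G2 and mitosis UMIs, Hist1h2ap was at 1897 and 2451 CPM, 1.29-fold (1.16 to 1.44), and the other replication-linked members at 757 and 1407 CPM, 1.86-fold (1.58 to 2.18). In these cells the ratio of Hist1h2ap was below that of the other replication-linked members in all 3 classes.

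Promoters of 250 bases before the start site were taken from RefSeq (GRCm38.p6) for 59 of the 69 members, and 3 motifs were searched in both strands. The TATA box (TATAAA) was present in 47.5% of members and 12.4% of all 32851 promoters, the CCAAT box (CCAAT) in 81.4% and 33.8%, and the octamer (ATTTGCAT) in 20.3% and 1.6%. All promoters of H1, H2A and H2B members held CCAAT, 80% of those of H3 and 25% of those of H4. The octamer was found in 38.9% of H2A and 35.7% of H2B promoters and in 0 of H1, H3 and H4. Where an H2A and an H2B gene start close together in opposite directions, their windows can overlap. One motif can then count for both families, so these promoters are not independent. The windows of Hist1h2ae and Hist1h2bg, of Hist1h2ah and Hist1h2bk, and of Hist1h2ba and Hist1h2aa overlapped, and each of these genes was scored for the octamer. By group, 17 of 28 replication-linked members and 2 of 9 members seen in cycle-low cells held TATAAA. The promoters of the member with the most UMIs and of the endocrine-high Hist3h2ba follow, with CCAAT and TATAAA in capitals on either strand.
Hist1h2ap, chr13:21833476-21833725, minus strand: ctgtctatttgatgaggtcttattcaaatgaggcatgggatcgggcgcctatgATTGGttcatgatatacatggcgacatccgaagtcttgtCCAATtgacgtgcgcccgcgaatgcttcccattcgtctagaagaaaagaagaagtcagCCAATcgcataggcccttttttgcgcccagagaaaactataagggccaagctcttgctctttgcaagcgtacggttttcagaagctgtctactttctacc
Hist3h2ba, chr11:58948661-58948910, plus strand: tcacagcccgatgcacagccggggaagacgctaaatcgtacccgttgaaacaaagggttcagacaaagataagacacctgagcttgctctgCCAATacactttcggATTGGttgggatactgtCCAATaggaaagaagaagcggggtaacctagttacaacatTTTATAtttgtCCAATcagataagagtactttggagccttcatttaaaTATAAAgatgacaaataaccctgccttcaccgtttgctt

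The Hist1h2ap promoter held CCAAT and no TATAAA, and that of Hist3h2ba held both. Of the members, 12 pairs started within 1000 bases of each other in opposite directions, each of an H2A and an H2B gene. In 4 of the pairs both partners had the minimum of 20 UMIs in control mesenchyme, and in 2 of these both were replication-linked. In the other 2 one partner was replication-linked and one was seen in cycle-low cells. Hist1h2ap lies 235 bases from Hist1h2br, which had 0 UMIs and shares 99.8% of its 90-mers with another gene. Hist1h2bc lies 250 bases from Hist1h2ac, with 2702 control UMIs for the first and 68 for the second, and the first was seen in cycle-low cells and the second was replication-linked. The pairs with both replication-linked were Hist1h2ag with Hist1h2bj, 269 bases apart, and Hist1h2ae with Hist1h2bg, 175 bases apart.

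Genes outside the clusters that work with these histones were measured in the same cells. Replacement histone genes can supply histones outside replication and can make polyadenylated RNA. Of 10 such genes, 0 passed 1.5-fold between the libraries in either direction in mesenchyme or epithelium. Of all genes, 0.48% were higher and 0.805% lower in mesenchyme, and 0.817% and 2% in epithelium, so 0 of 10 is near that share. The most abundant were H3f3b (2339 and 2471 CPM in mesenchyme), H3f3a (1705 and 1889) and H2afz (1279 and 1389). Some were higher in S-range than in cycle-low cells of mesenchyme. At least 3-fold higher were 2 of the 10 in control (2.67% of all genes) and 1 in the knockout-labelled library (2.63% of all genes). H2afx was at 3.93-fold and 4.29-fold and H2afz at 3.22-fold and 2.79-fold. Of 18 genes of histone transcription and 3′ end processing, 1 was higher in mesenchyme (0.48% of all genes were) and 0 in epithelium (0.817% of all genes were), namely Lsm11, a part of the U7 particle that cleaves after the stem-loop (6.12 and 11.8 CPM). Of 12 histone chaperones, 1 was higher in mesenchyme and 0 in epithelium against the same shares of all genes, namely Asf1a (25.6 and 43.8 CPM), which hands on H3 and H4. None of either list was lower, against 0.805% of all genes in mesenchyme and 2% in epithelium. Median log2 ratios in mesenchyme were 0.11 for replacement histones, 0.06 for processing and 0.05 for chaperones, and 0.20 for the clustered members.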

How the data were processed

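The members and lists were chosen with earlier results of these data known. Values started from the deposited UMI counts, which the authors produced with Cell Ranger against GRCm38, per the submitters' processing notes (Seurat 2 and 3 are named there too). The sources used here state no Cell Ranger version and no annotation release. For each cluster, the deposited cluster table lists an average log fold, read as the natural log, and p-values of the authors that were left aside.

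Barcodes needed 500 genes, 1000 UMIs and no more than 10% mitochondrial UMIs. Classes needed at least 4 UMIs of epithelial, 5 of mesenchymal, 3 of mesothelial, 5 of immune or 3 of neural markers, thresholds set after seeing the UMI distributions. Mesothelium went before mesenchyme, and cells past any other pair of gates (67 and 32) or past none (192 and 162) were left out. No doublet caller was run. Endocrine cells needed 2 Chga UMIs, endocrine progenitors and tip cells 5 and 10 UMIs of their markers, and the other epithelial cells were called trunk. Mesenchymal cells under 3000 UMIs (28 and 33) were not graded.

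UMIs were summed per library and class as CPM of all genes. Ratios use log2 of (CPM + 5), folds use UMIs alone. CPM intervals are exact Poisson, and fold intervals exact conditional binomial. Members with at least 100 UMIs are named. Sequences are from GENCODE M21 and RefSeq. Simulated Poisson counts were used to check the fold intervals and 1.5-fold calls of mesenchymal genes and the thinning. Gating, cycle grading, the grouping of members and the sequence searches were not tested on simulated data. Python 3.11.15, numpy 2.4.6, scipy 1.17.1 and pandas 2.3.3 were used.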

Additional observations from a re-analysis of the deposited data

Results flagged for a closer look

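Hist1h2bc, an H2B gene seen in cycle-low cells, lay on opposite sides of 1 in different classes, each with a counting interval that excludes 1. The knockout-labelled library was at 1.25-fold (1.14 to 1.37) of the control in tip and at 1.60-fold (1.40 to 1.83) in mesenchyme, and at 0.671-fold (0.442 to 0.988) in endocrine cells and 0.693-fold (0.533 to 0.896) in mesothelium. The endocrine value rests on 173 and 31 UMIs.

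The linker gene Hist1h1c did so within the epithelium. It was at 1.43-fold (1.21 to 1.68) in tip, 1.57-fold (1.16 to 2.12) in trunk and 2.45-fold (1.61 to 3.75) in endocrine progenitors, and at 0.468-fold (0.234 to 0.856) in endocrine cells, on 96 and 12 UMIs. With 1 library a group the difference between classes was not tested for either gene.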

How the results depend on the processing

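No paired analysis was possible because each group holds 1 library. Alternatives were median-of-ratios scaling, a pseudocount of 1, a stricter cell filter, thinning, leaving out the highest 2% of cells by UMIs, a minimum of 100 UMIs, other gradings of the cycle and, chosen after seeing the data, sums without Hist1h2ap. Without Hist1h2ap the log2 ratio of the summed members turned from -0.26 to 0.0285 in epithelium and from -0.08 to 0.38 in mesenchyme, since that gene holds much of the sum. The 2 members called in epithelium became 1 under median-of-ratios scaling, under thinning and without the highest 2% of cells. With a pseudocount of 1, Hist1h2an also passed 1.5-fold in epithelium. The 2 called in mesenchyme became 1 under median-of-ratios scaling and 11 with a pseudocount of 1 (10 higher, 1 lower), where 1.89% of all genes were called higher and 2.64% lower. The 9.79-fold S range in control mesenchyme was 7.00-fold when graded at 5000 UMIs, 11.6-fold with the S cut 2 UMIs higher and 3.36-fold without Hist1h2ap. The 6.69-fold of the knockout-labelled library was 5.01-fold, 7.64-fold and 3.36-fold in that order, and 6.19-fold as a mean over cells. The cause of the shifts between gradings was not tested. The number of replication-linked members ran from 24 to 39. Graded at 5000 UMIs, 22 of the 34 were among 25 linked members, and chosen in knockout-labelled mesenchyme 32 of them were among 35. Of 385 values of single members under these settings, 363 stayed within their counting interval, 22 left it and 0 called values changed sign, while 15 that were not called did. Hist1h2ap stayed between -0.72 and -0.63 on the log2 scale in epithelium and between -0.62 and -0.57 in mesenchyme. Median-of-ratios scaling moved the median of all genes by 0.012 in epithelium and 0.011 in mesenchyme. Depth limits the classes of few cells most, such as the 24 endocrine and 21 immune cells of the knockout-labelled library.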
